A study of Homo sapiens with 8 samples.

Results

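This section describes 56 human genes that encode ribosome biogenesis factors and subunits of the RNA exosome. They were taken by name from a table of 25369 genes, and all 56 were found. Of them, 46 encode proteins that modify, fold and cut ribosomal RNA or build the small and large ribosomal subunits, and 10 encode subunits of the exosome (EXOSC1 to EXOSC10). The genes were put together with the DMOG and vehicle values of this study already known, so every difference between the groups given here for them is a description of the chosen genes, and its adjusted p-value only sets the difference against the spread between libraries.

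RNA was sequenced from the esophageal epithelial line EPC2-hTERT, human cells immortalized with telomerase and labelled wild type. All cultures, of both groups, grew on permeable membranes, had 5 days in medium with 1.8 mM calcium chloride and then 4 days with air above them, conditions under which keratinocytes stratify. The DMOG group (4 libraries) received 1 mM dimethyloxalylglycine for 18 h, and the vehicle group (4 libraries) received DMSO. DMOG mimics oxoglutarate and so inhibits the prolyl hydroxylases that mark the alpha subunits of hypoxia-inducible factors (HIF) for degradation. A single cell line was used. Since nothing in the labels says that replicates were cultured separately, the p-values reflect the spread among these libraries, and that spread may be technical.

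Ribosomes are assembled in the nucleolus from a long ribosomal RNA precursor. Small nucleolar ribonucleoproteins (snoRNPs) guide its methylation (box C/D) and pseudouridylation (box H/ACA), a large particle called the small-subunit processome folds and cleaves its first part, and separate factors build the large subunit on the rest. The RNA exosome, a ring of RNase-like subunits with a cap and attached nucleases, trims and degrades RNA from its 3′ end, including precursors and by-products of ribosomal RNA.

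Values are RPKM, reads per kilobase of gene length scaled to the total of reads in genes, divided by a scaling factor per library so that the median gene is level between libraries (scaled RPKM). The factors ran from 0.837 to 1.04 in DMOG libraries and from 1.01 to 1.132 in vehicle libraries. Libraries held 31245695 to 34171313 reads in genes with DMOG and 32707991 to 39931833 with vehicle, and no member had fewer than 28 reads in any library. KRT5, a keratin of squamous epithelium, stood at 5897 to 8667 scaled RPKM in DMOG libraries and 3637 to 8092 in vehicle libraries. The summed level of 5 fibroblast markers was at most 0.0591 scaled RPKM in any library, with DCN and LUM at 0 in all of them. Of 4 endothelial markers, CDH5 was at 0, PECAM1 and KDR were at most 0.0307, and VWF stood at 1.03 to 1.79 with DMOG and 1.304 to 1.75 with vehicle. Of 5 leukocyte markers, MS4A1 was at 0 and PTPRC, CD3E and SIGLEC8 were at most 0.0377. CD68, a lysosomal protein of macrophages that other cells also make, stood at 58.3 to 100.4 with DMOG and 37.7 to 68.1 with vehicle, and rose by 0.80 on the log2 scale over 6 libraries (adjusted p = 0.0344). Its part in the members' levels was not tested.

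The libraries of the DMOG group differed among themselves. CA9, a carbonic anhydrase and known HIF target, stood at 28.0, 2.45, 10.7 and 68.7 scaled RPKM in DMOG replicates 1 to 4, against 0.831, 1.29, 0.12 and 0.517 in vehicle replicates 1 to 4. DMOG replicate 2 was thus the DMOG library nearest to the vehicle libraries. In it the HIF response genes CA9, ENO2 and NDUFA4L2 were above every vehicle library, and PGK1, at 110, was within the vehicle range (89.5 to 126). Over genes, the mean chi-square between the reads of 2 libraries was 20.1 for DMOG replicate 2 with vehicle replicate 1. It was 49.0 to 66.1 for DMOG replicate 2 with the other vehicle libraries, and 35.5 to 122.5 between vehicle libraries. The authors' own deposited comparison rests on replicates 1, 3 and 4 of each group; the reason for this choice is not stated. Results are therefore given over all 8 libraries and over those 6. Whether the choice of the 6 rests on the values measured is not known, and p-values over the 6 do not allow for it.

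Most members stood lower with DMOG. Over 8 libraries the fold change was below 0 in 54 of 56 members, against 48.6% of the 11122 genes tested, and the median log2 fold change was -0.68 over the members and 0.01 over all genes. Over 6 libraries it was below 0 in 53 members, against 49.0% of all genes, with a median of -0.86 over the members and 0.01 over all genes. The scaling sets the median of all genes near 0. With RPKM as deposited, the median of all genes was -0.18 over 8 libraries and -0.26 over 6, and that of the members -0.87 and -1.15. All 56 members passed the filter on low values. In bulk RNA, fewer cells of a type and less RNA per cell cannot be told apart.

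No member passed the test over 8 libraries, where limma called 0 genes lower (0.0% of all genes) and 0 higher (0.0%) after Benjamini-Hochberg adjustment. The smallest adjusted p-value of a member was 0.119. At an unadjusted p under 0.05, 38 members were lower and 0 higher, against 15.5% of all genes lower and 15.0% higher. Over 6 libraries, 26 members fell and 0 rose at an adjusted p under 0.05, against 15.8% of all genes called lower and 14.4% called higher. The labels do not say whether replicate numbers mark pairs. Over the 6 libraries, deviations of same-numbered libraries from their group means went together. Over all 8 their correlations ran from -0.02 to 0.53, so a pairing is not established. With the number as a block over the 6, 43 members were lower, against 20.3% of all genes. The block ended none of the 26 calls and added 17. Among the 26 it raised the adjusted p of some (EXOSC5 from 0.00242 to 0.00616) and lowered that of others (DKC1 from 0.0318 to 0.0194). Without DMOG replicate 2 alone, 39 members were lower over 7 libraries, against 17.3% of all genes. The 26 called over 6 libraries were all among them.

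The count over 6 libraries depended on single libraries. It was 10 without DMOG replicate 1 (5.25% of all genes), 47 without DMOG replicate 3 (21.8%) and 30 without DMOG replicate 4 (13.7%). It was 8 without vehicle replicate 1 (4.51%), 12 without vehicle replicate 3 (9.15%) and 9 without vehicle replicate 4 (5.12%), so the share of all genes called moved along with the members' count. The 7 members called in each of these fits and without DMOG replicate 4 were UTP14A, RRP12, BOP1, NHP2, EXOSC1, EXOSC5 and EXOSC8. Of the others, NOB1 lost its call without vehicle replicate 1, RRP9 without that library or DMOG replicate 1, GNL3 without DMOG replicate 1 or vehicle replicate 4, and DDX10 and WDR12 without vehicle replicate 1 or 4, with adjusted p-values of up to 0.0591. The remaining 14 lost it without any 1 of DMOG replicate 1 and vehicle replicates 1, 3 and 4 (WDR75 and RRP1 also without DMOG replicate 4), with adjusted p-values of up to 0.121. In the authors' deposited table, which uses the same 6 libraries, 32 members had an adjusted p under 0.05 and all 32 were lower, against 17.6% of the genes in that table. These included the 26 members called here.

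**Figure D1:**
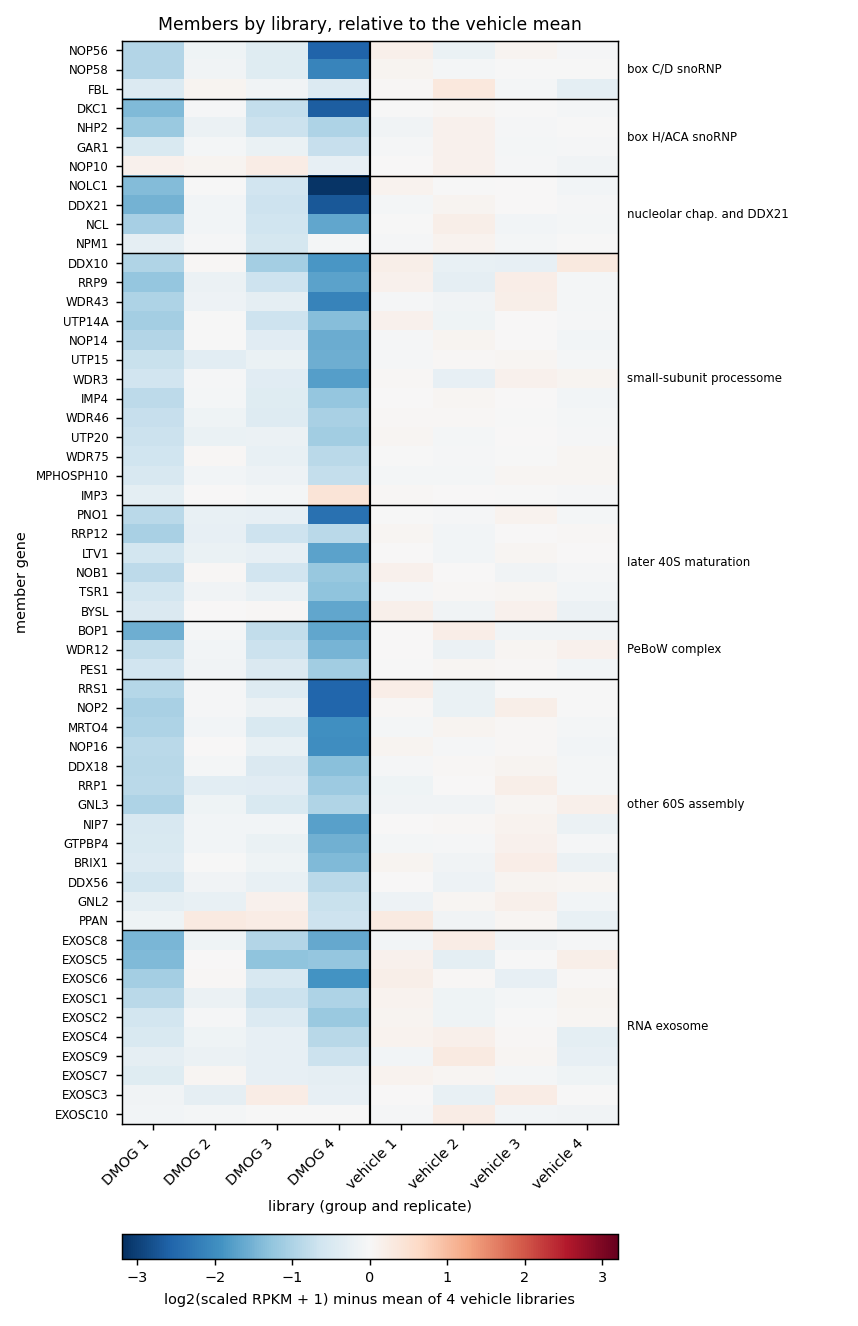
Each row is a member, grouped by role, and each column a library, with DMOG libraries on the left. Colour gives log2(scaled RPKM + 1) minus the mean of the 4 vehicle libraries, blue for lower and red for higher. DMOG replicate 4 is the bluest column and DMOG replicate 2 is close to the vehicle libraries.

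The lower levels were not shared equally by the DMOG libraries. Relative to the mean of the 4 vehicle libraries on the log2 scale, the median member stood between -0.05 and 0.02 in each vehicle library. Its position was -0.81 in DMOG replicate 1, -0.08 in replicate 2, -0.37 in replicate 3 and -1.32 in replicate 4. The median of all genes lay within 0.01 of the vehicle mean in each of them, where the scaling sets it. DMOG replicate 4 was the lowest of the 4 DMOG libraries for 46 of 56 members, and DMOG replicate 2 was the highest for 47. For 39 members the order was exactly replicate 4, 1, 3 and 2 from low to high. The same counts were not taken over all genes, so the order is not known to be particular to the members. CA9 had the opposite order, highest in replicate 4 and lowest in replicate 2. Whether the extent of the HIF response bears on the members' level was not tested.

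Against the range of the 4 vehicle libraries, 52 members lay below it in DMOG replicate 1 (34.4% of all genes), 21 in replicate 2 (13.6%), 45 in replicate 3 (31.2%) and 54 in replicate 4 (37.9%). In DMOG replicate 2 a further 34 members were within the vehicle range and 1 was above it (14.3% of all genes). For 19 members every DMOG library was below every vehicle library, against 6.63% of all genes, and over the 6 libraries this held for 45 members, against 26.2%. The median coefficient of variation of a member was 44.5% over the DMOG libraries and 8.70% over the vehicle libraries.

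**Figure D2:**
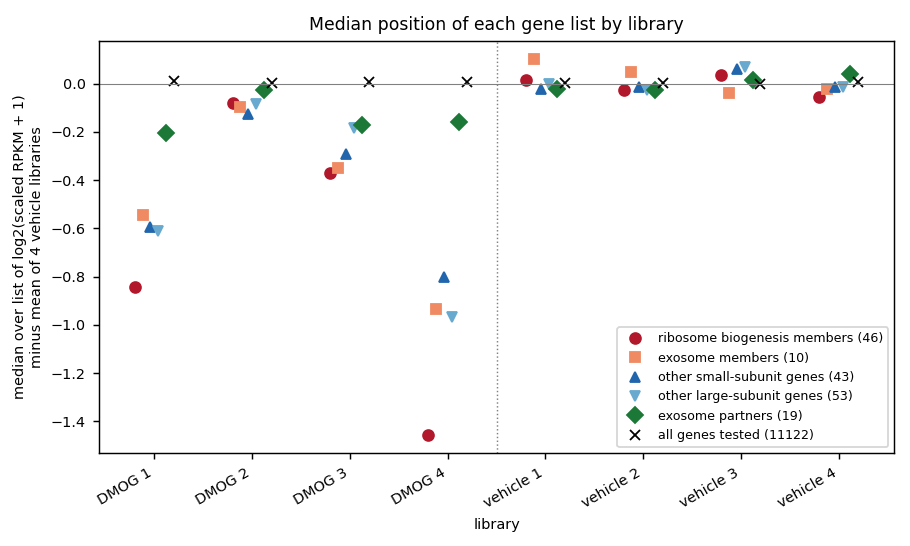
Points give, for each library, the median over a gene list of log2(scaled RPKM + 1) minus the mean of the 4 vehicle libraries. DMOG libraries are left of the dotted line. The 46 ribosome biogenesis members are lowest in DMOG replicate 4 (-1.46) and replicate 1 (-0.84), and the 19 exosome partners stay within 0.21 of the vehicle mean.

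Among the box C/D proteins, 0 of 3 members passed over 6 libraries (15.8% of all genes called lower). With the replicate block 2 passed (20.3% of all genes called lower), NOP56 (adjusted p = 0.0376, or 0.0749 without the block) and NOP58. NOP56, which with NOP58 forms the protein core of these particles, stood at 14.4, 25.9, 21.3 and 3.99 scaled RPKM in DMOG replicates 1 to 4, against 31.8, 24.5, 30.2 and 27.8 in vehicle replicates 1 to 4 (log2 fold change -1.01 ± 0.45 SE over 8 libraries, adjusted p = 0.167). The groups overlapped, since DMOG replicate 2 was above vehicle replicate 2. NOP58 stood at 10.01, 18.6, 15.2 and 3.93 with DMOG, against 21.4, 19.2, 20.2 and 20.2 with vehicle, and every DMOG library was below every vehicle library. Its log2 fold change over 6 libraries was -1.17 ± 0.39 (adjusted p = 0.0594, or 0.0357 with the replicate block). FBL, the fibrillarin methyltransferase of the same particles, was nearly level, at 25.4, 37.3, 32.1 and 25.6 with DMOG and 36.2, 44.3, 33.2 and 28.2 with vehicle (-0.23 ± 0.17 over 8 libraries).

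The box H/ACA particle has 4 core proteins, and these differed among themselves. DKC1, dyskerin, the pseudouridine synthase (chromosome X, 153991017 to 154005964 in hg19), stood at 3.67, 11.1, 6.31 and 1.01 scaled RPKM in DMOG replicates 1 to 4, against 11.4, 12.1, 11.4 and 10.9 with vehicle. DMOG replicate 2 lay inside the vehicle range and the other 3 DMOG libraries below it. Its group means were 5.51 ± 4.29 with DMOG and 11.4 ± 0.496 with vehicle (SD, n = 4 each), and it fell by 1.58 ± 0.42 on the log2 scale over 6 libraries (adjusted p = 0.0318, up to 0.0948 with 1 library left out). NHP2, a core protein that binds the RNA, stood at 29.9, 61.0, 42.9 and 34.6 with DMOG, against 64.3, 76.2, 67.8 and 69.0 with vehicle, with no overlap between the groups. It fell by 0.90 ± 0.14 over 6 libraries (adjusted p = 0.00792). GAR1 had a fold change of -0.43 (adjusted p = 0.0568, or 0.0488 with the block). NOP10, the smallest of the core proteins, stood at 116, 113, 125 and 88.3 with DMOG, against 106, 117, 103 and 96.7 with vehicle (0.05 ± 0.13 over 8 libraries, but -0.17 with RPKM as deposited), and its groups overlapped.

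The 4 nucleolar proteins with broader roles had the lowest median of the role groups (-1.05 over 8 libraries and -1.33 over 6). NOLC1, a phosphoprotein that binds snoRNPs (chromosome 10, 103911933 to 103923628), had the largest difference of all members, at 11.9, 33.1, 21.4 and 2.85 scaled RPKM in DMOG replicates 1 to 4, against 35.7, 32.6, 33.4 and 30.9 with vehicle. Its log2 fold change was -1.29 ± 0.56 over 8 libraries (adjusted p = 0.159) and -1.72 ± 0.57 over 6 (adjusted p = 0.0589, or 0.0308 with the block). The spread among the DMOG libraries, 17.3 ± 12.95 against 33.1 ± 2.00 with vehicle (SD, n = 4 each), went with its large error. DDX21, an RNA helicase of ribosomal RNA synthesis and processing, stood at 16.1, 45.1, 29.9 and 6.38 with DMOG, against 45.8, 50.6, 47.9 and 46.5 with vehicle, without overlap, and fell by 1.602 ± 0.46 over 6 libraries (adjusted p = 0.0392). NCL, nucleolin, fell by 1.06 ± 0.24 over 6 libraries (adjusted p = 0.0193). NPM1, nucleophosmin, a histone and ribosome chaperone, had the highest level of all members and a smaller difference, at 182, 218, 150 and 211 with DMOG against 218, 239, 213 and 218 with vehicle (-0.24 ± 0.14 over 8 libraries). NPM1 has many processed pseudogenes, so its value is uncertain where reads map to several places. With 1 library left out, the adjusted p reached 0.104 for DDX21 and 0.0719 for NCL.

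**Figure D3:**
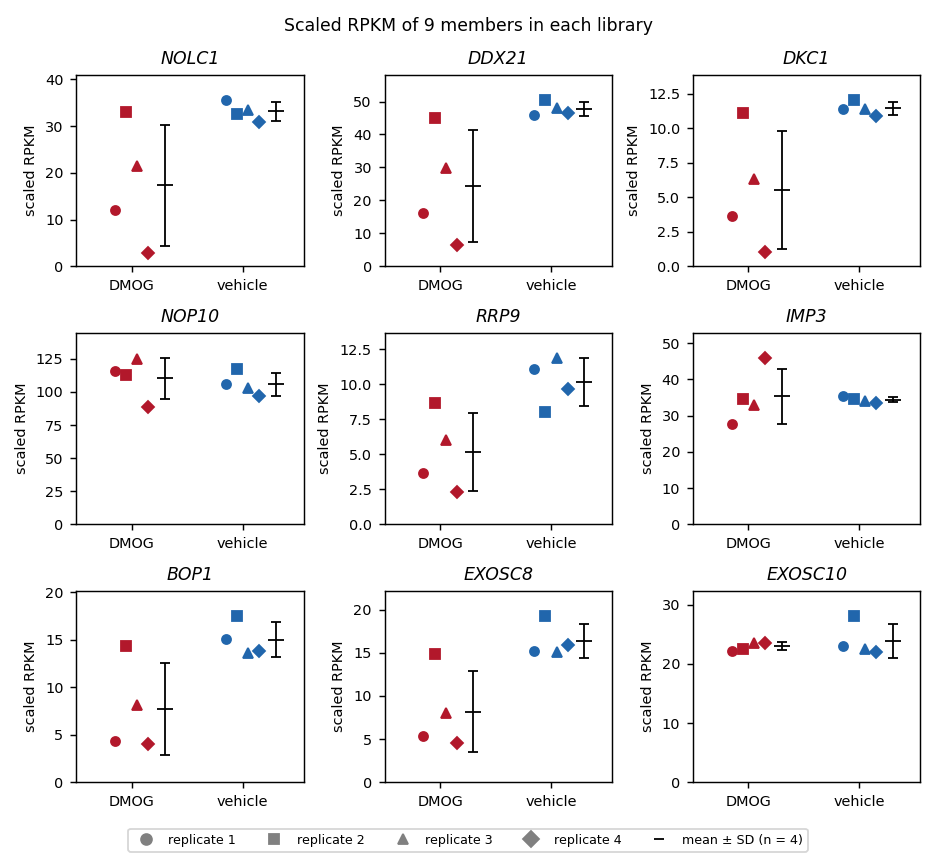
Scaled RPKM of 9 members in each library, DMOG in red and vehicle in blue, with marker shape giving the replicate number and bars the mean ± SD (n = 4). NOLC1, DDX21, DKC1, RRP9, BOP1 and EXOSC8 have 3 DMOG libraries below the vehicle libraries and replicate 2 near them, while NOP10, IMP3 and EXOSC10 overlap with vehicle.

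Of 13 proteins of the small-subunit processome, 7 fell over 6 libraries (15.8% of all genes) and 12 with the replicate block (20.3%). The median log2 fold change was -0.70 over 8 libraries and -0.81 over 6. DDX10, an RNA helicase, stood at 2.33, 5.61, 2.04 and 0.785 scaled RPKM in DMOG replicates 1 to 4, against 6.33, 4.54, 4.41 and 7.03 with vehicle, and fell by 1.38 ± 0.27 over 6 libraries (adjusted p = 0.0129). RRP9, a protein of the U3 snoRNP, stood at 3.69, 8.64, 6.01 and 2.34 with DMOG, against 11.1, 7.99, 11.9 and 9.64 with vehicle. In both genes DMOG replicate 2 lay inside the vehicle range. RRP9 fell by 1.305 ± 0.26 over 6 libraries (adjusted p = 0.0133). UTP14A, a protein that in yeast activates a helicase of the particle, stood at 3.61, 8.80, 5.25 and 2.82 with DMOG, against 9.92, 8.01, 8.95 and 8.66 with vehicle, and fell by 1.08 ± 0.18 (adjusted p = 0.0092). WDR43, a scaffold protein with WD repeats, stood at 6.59, 12.5, 11.4 and 2.41 with DMOG, against 13.8, 13.1, 16.2 and 13.5 with vehicle. Its groups did not overlap, and it did not pass over 6 libraries (adjusted p = 0.0722, or 0.0319 with the block).

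The exception in this group was IMP3, which binds U3 RNA together with IMP4 and MPHOSPH10. It stood at 27.7, 34.5, 32.8 and 45.97 scaled RPKM in DMOG replicates 1 to 4, against 35.4, 34.6, 34.0 and 33.6 with vehicle, and had its highest value in DMOG replicate 4, where most members were lowest. Its log2 fold change was 0.01 ± 0.15 over 8 libraries, and -0.21 with RPKM as deposited. IMP4 fell by 0.81 over 6 libraries (adjusted p = 0.0264), and MPHOSPH10 had -0.50 (adjusted p = 0.0506, or 0.0364 with the block). The remaining members had fold changes over 6 libraries of -0.93 for NOP14, -1.01 for WDR3, -0.81 for UTP15, -0.71 for WDR46, -0.67 for UTP20 and -0.60 for WDR75. Of these NOP14, WDR46 and WDR75 passed the test (adjusted p = 0.0454, 0.0229 and 0.0328). WDR3, UTP15 and UTP20 did not (adjusted p = 0.0602, 0.0888 and 0.0593), but passed with the block (adjusted p = 0.0373, 0.046 and 0.0356). The level of WDR46 cannot be set beside those of other genes, because its listed length is summed over 5 copies of its locus on alternative chromosome 6 sequences.

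For the factors of later small-subunit maturation, 2 of 6 fell over 6 libraries (15.8% of all genes) and 5 with the replicate block (20.3%). Every DMOG library was below every vehicle library for 4 of 6, against 6.63% of all genes. NOB1, the nuclease that makes the mature end of the small-subunit RNA, stood at 12.1, 23.0, 14.4 and 9.17 scaled RPKM in DMOG replicates 1 to 4, against 24.7, 22.6, 20.8 and 22.1 with vehicle, and fell by 0.89 ± 0.16 over 6 libraries (adjusted p = 0.0115). RRP12, which acts in maturation and export of the particles, stood at 4.02, 7.71, 5.52 and 4.73 with DMOG, against 9.85, 8.70, 9.42 and 9.58 with vehicle. It had the smallest unadjusted p of the members over 8 libraries (0.00185, adjusted p = 0.119) and fell by 0.89 ± 0.12 over 6 (adjusted p = 0.00613). PNO1, the partner of NOB1, stood at 4.42, 7.28, 7.12 and 0.888 with DMOG, against 8.67, 8.60, 9.67 and 8.33 with vehicle, so that DMOG replicate 4 alone lay far below the other DMOG libraries. Its fold change over 6 libraries was -1.18 ± 0.48 (adjusted p = 0.102, or 0.0491 with the block). LTV1, TSR1 and BYSL, which join or leave the late particles, had -0.88, -0.68 and -0.73 (adjusted p = 0.087, 0.0783 and 0.194, or 0.0484, 0.0358 and 0.0692 with the block).

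All 3 proteins of the PeBoW complex, which acts in early large-subunit assembly, fell over 6 libraries (15.8% of all genes). BOP1 stood at 4.40, 14.4, 8.18 and 4.00 scaled RPKM in DMOG replicates 1 to 4, against 15.1, 17.5, 13.6 and 13.8 with vehicle, and fell by 1.27 ± 0.23 (adjusted p = 0.0105). WDR12 stood at 3.22, 5.82, 3.49 and 1.59 with DMOG, against 6.27, 5.39, 6.55 and 6.94 with vehicle, and fell by 1.05 ± 0.21 (adjusted p = 0.0145). For both, the DMOG replicate 2 value lay inside the vehicle range. PES1, the third protein, stood at 11.04, 16.1, 12.5 and 7.51 with DMOG, against 17.5, 18.3, 18.1 and 16.3 with vehicle, with no overlap, and fell by 0.72 ± 0.18 (adjusted p = 0.0252).

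Of 13 further factors of the large subunit, 5 fell over 6 libraries (15.8% of all genes), namely MRTO4, GNL3, DDX18, DDX56 and RRP1. With the replicate block 9 fell (20.3% of all genes). MRTO4, an assembly factor related to a ribosomal stalk protein, stood at 6.22, 12.5, 9.15 and 2.64 scaled RPKM in DMOG replicates 1 to 4, against 12.8, 14.2, 13.7 and 12.6 with vehicle, and fell by 1.12 ± 0.34 (adjusted p = 0.0458). GNL3, the GTPase nucleostemin, had the highest level of the group, at 23.1, 42.5, 33.4 and 23.5 with DMOG against 43.03, 43.5, 48.6 and 52.4 with vehicle, and fell by 0.84 ± 0.16 (adjusted p = 0.0126). Neither gene's groups overlapped. DDX18 and DDX56, RNA helicases, fell by 0.89 and 0.62, and RRP1 by 0.79 (adjusted p = 0.0247, 0.0307 and 0.0308).

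In the same group, some large differences did not pass, and DMOG replicate 4 stood well below replicates 1 and 3. RRS1, which brings a ribosomal RNA and its proteins into the early particle, stood at 6.25, 12.3, 9.18 and 1.34 scaled RPKM in DMOG replicates 1 to 4, against 14.9, 10.9, 12.5 and 12.6 with vehicle (-1.36 ± 0.49 over 6 libraries, adjusted p = 0.0743, or 0.0409 with the block). NOP2, a methyltransferase of ribosomal RNA, stood at 5.03, 11.02, 9.71 and 1.128 with DMOG, against 11.7, 9.69, 12.9 and 11.1 with vehicle (-1.32 ± 0.52, adjusted p = 0.0945, or 0.0448 with the block). NOP16 stood at 5.28, 10.4, 8.54 and 1.87 with DMOG, against 11.1, 9.97, 10.6 and 9.67 with vehicle (-1.04 ± 0.39, adjusted p = 0.0833, or 0.0404 with the block). In these 3 genes DMOG replicate 2 was within the vehicle range. NIP7, GTPBP4 and BRIX1 had -0.77, -0.75 and -0.70 and did not pass (adjusted p = 0.169, 0.112 and 0.13). With the block these were 0.0663, 0.0527 and 0.0351. The GTPase GNL2 had -0.28. PPAN, at 1.51 with DMOG and 1.57 with vehicle on average, had -0.22 and is uncertain, since a read-through transcript with P2RY11 is listed at the same place.

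**Figure D4:**
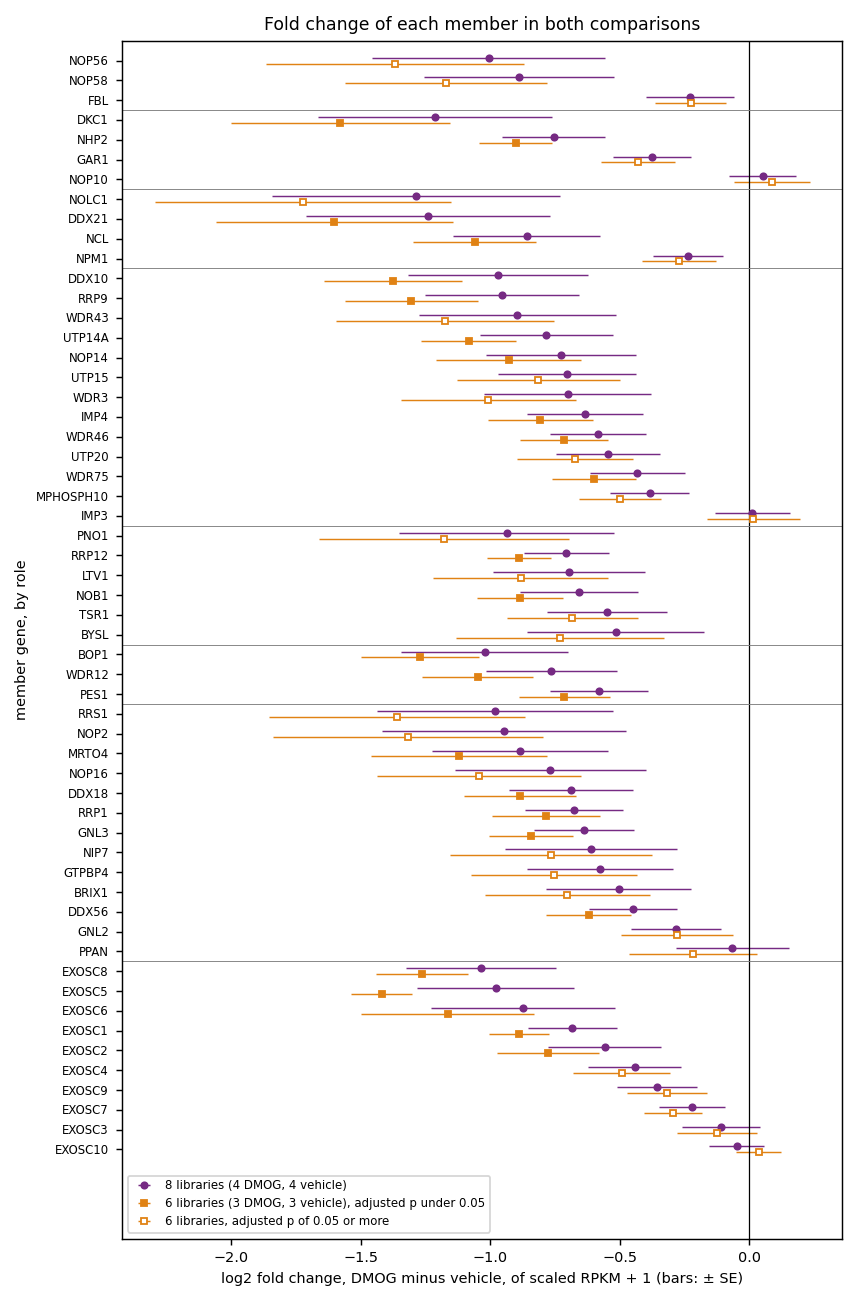
Log2 fold change of each member, DMOG minus vehicle, with its standard error, over 8 libraries (circles) and over 6 libraries (squares, filled where the limma adjusted p was under 0.05). The 26 filled squares are all left of 0, and FBL, NOP10, NPM1, IMP3, GNL2, PPAN, EXOSC3, EXOSC7 and EXOSC10 lie nearest to it.

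Of the 10 exosome subunits, 5 fell over 6 libraries (15.8% of all genes) and 6 with the replicate block (20.3%). The median log2 fold change was -0.50 over 8 libraries and -0.63 over 6. EXOSC5, a subunit of the ring (chromosome 19, 41892276 to 41903256), stood at 1.301, 5.28, 1.54 and 1.62 scaled RPKM in DMOG replicates 1 to 4, against 5.81, 3.94, 5.14 and 6.03 with vehicle. It differed from most members in that DMOG replicates 1, 3 and 4 were nearly level, and it had the smallest adjusted p of all members over 6 libraries (-1.42 ± 0.12, adjusted p = 0.00242). Its values in these 3 libraries rest on few reads (39, 46 and 42). EXOSC8, another ring subunit (chromosome 13, 37574678 to 37583751), stood at 5.33, 14.8, 8.01 and 4.61 with DMOG, against 15.2, 19.3, 15.1 and 15.9 with vehicle, with no overlap, and fell by 1.26 ± 0.18 (adjusted p = 0.00639). EXOSC6, also of the ring, stood at 4.29, 10.6, 6.94 and 2.00 with DMOG, against 11.9, 10.6, 8.50 and 10.6 with vehicle, and fell by 1.16 ± 0.33 (adjusted p = 0.0392).

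The cap subunits differed. EXOSC1 stood at 8.56, 14.1, 9.71 and 7.71 scaled RPKM in DMOG replicates 1 to 4, against 17.6, 14.8, 15.5 and 17.5 with vehicle, with no overlap, and fell by 0.89 ± 0.12 over 6 libraries (adjusted p = 0.00549). EXOSC2 fell by 0.78 (adjusted p = 0.0279), and EXOSC3 had a fold change of -0.12 (adjusted p = 0.56). The ring subunits EXOSC4, EXOSC7 and EXOSC9 had -0.49, -0.29 and -0.32 and did not pass (adjusted p = 0.0845, 0.0841 and 0.152). EXOSC4 did with the block (adjusted p = 0.0195). EXOSC10, the nuclease attached to the nuclear exosome and the most abundant of the 10, was at 22.2, 22.6, 23.6 and 23.5 with DMOG, against 23.1, 28.1, 22.4 and 22.0 with vehicle. The DMOG libraries differed by less than the vehicle libraries did, with means of 23.0 ± 0.684 with DMOG and 23.9 ± 2.85 with vehicle (SD, n = 4 each). Its log2 fold change was -0.05 ± 0.11 over 8 libraries and 0.04 ± 0.09 over 6, and -0.26 over 8 with RPKM as deposited. EXOSC9 overlaps CCNA2 and EXOSC8 overlaps SUPT20H on the opposite strand, and how strand was treated in counting is not stated. In all, 10 members overlap a gene on the opposite strand (also NOP14, WDR3, TSR1, BOP1, WDR12, GNL2, GNL3 and NIP7), and their values are uncertain to that extent. The genes opposite BOP1 and GNL2 had no read in any library. Those opposite WDR3 and WDR12 were at most 0.551 scaled RPKM. SUPT20H stood at 8.65 to 12.2, above EXOSC8 itself in DMOG replicates 1, 3 and 4. The gene opposite GNL3 stood at 8.16 to 10.4, that opposite NIP7 at 5.06 to 7.77 and that opposite NOP14 at 2.78 to 9.68. The gene opposite TSR1 stood at 1.26 to 2.28, and CCNA2 at 0.183 to 2.39.

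Ratios between members of 1 library do not depend on the scaling. The pairs were chosen after the values were seen, as a changed against a nearly level partner, so they describe only the size of the gap. DKC1 stood at 3.16%, 9.83%, 5.07% and 1.14% of NOP10 in DMOG replicates 1 to 4, against 10.7%, 10.3%, 11.1% and 11.2% in vehicle replicates 1 to 4. EXOSC8 stood at 24.0%, 65.6%, 34.0% and 19.6% of EXOSC10 with DMOG, against 65.9%, 68.6%, 67.3% and 72.4% with vehicle. In both pairs all 4 DMOG libraries were below all 4 vehicle libraries, DMOG replicate 2 only just. NCL stood at 38.0%, 63.0%, 62.2% and 21.7% of NPM1 with DMOG, against 66.5%, 68.9%, 63.9% and 63.7% with vehicle, so that here DMOG replicate 3 was also close to the vehicle libraries. RRP9 stood at 13.3%, 25.01%, 18.3% and 5.10% of IMP3 with DMOG, against 31.3%, 23.1%, 35.0% and 28.7% with vehicle. In these 4 pairs DMOG replicate 4 was lowest, but not in every pair computed. NHP2 stood at 25.8%, 54.1%, 34.5% and 39.2% of NOP10 with DMOG, against 60.6%, 65.0%, 65.7% and 71.3% with vehicle, and EXOSC5 at 5.85%, 23.4%, 6.55% and 6.87% of EXOSC10 with DMOG, against 25.2%, 14.01%, 22.9% and 27.5% with vehicle. In both, DMOG replicate 1 was lowest. DMOG replicate 4 was lowest again in the ratios of NOP56 to FBL (15.6%) and of DDX21 to NPM1 (3.03%), the last of 8 pairs computed.

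**Figure D5:**
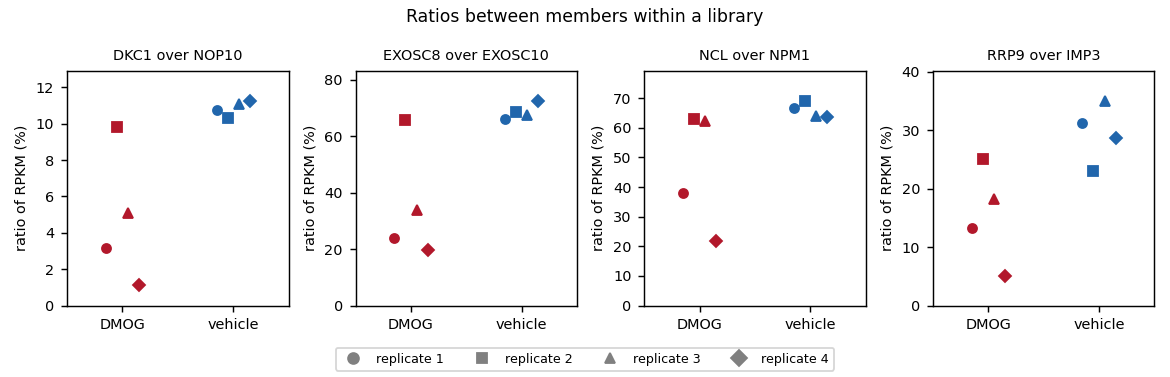
Ratio of the RPKM of 2 members in the same library, in percent, with DMOG in red and vehicle in blue and marker shape giving the replicate number. In these 4 of the 8 pairs computed DMOG replicate 4 is lowest, which does not hold for all 8, and DMOG replicate 2 is near the vehicle libraries.

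The members' levels and lengths were set against their fold changes as a description. Over 55 members, leaving out WDR46, Spearman's rho between the fold change over 8 libraries and the mean vehicle level was 0.06, and between the fold change and the listed length it was -0.27. Over 11041 genes tested with 1 listed position, the same values were -0.03 and 0.16. These points share their libraries, and longer members thus stood slightly lower with DMOG where longer genes in general stood slightly higher.

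Promoters were searched for the E-box, the motif bound by MYC with MAX, and for the core motifs ACGTG and GCGTG bound by HIF. RefSeq promoter sequences (GRCh38.p14), 300 bases each from 250 before to 50 after the gene start, were matched for 47 of 56 members. Those not matched were NOP58, NOLC1, MPHOSPH10, RRP12, BOP1, RRS1, DDX18, EXOSC1 and EXOSC4. The E-box CACGTG, which reads the same on both strands, was in 17 of 47 (36.2%), against 10.5% of 8320 promoters of genes tested and 7.43% of all 27305 promoters. In 12 of the 17 it lay only after the gene start or across it. On either strand, ACGTG, which is part of CACGTG, was in 24 (51.1%, against 27.4% and 21.6%), and GCGTG in 34 (72.3%, against 51.3% and 36.3%). The median log2 fold change over 8 libraries was -0.69 in members with an E-box and -0.63 in members without. A match is a description of these letters and no sign of binding.

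The stretches of 100 bases below lie before the gene start and are shown because they set 3 members that stood lower beside NOP10, which was nearly level, all with an E-box (in capitals). They are EXOSC5 (chr19:41397389-41397488, minus strand), UTP14A (chrX:129905914-129906013, plus strand), IMP4 (chr2:130342654-130342753, plus strand) and NOP10 (chr15:34343247-34343346, minus strand), each 5′ to 3′ along the gene.
EXOSC5: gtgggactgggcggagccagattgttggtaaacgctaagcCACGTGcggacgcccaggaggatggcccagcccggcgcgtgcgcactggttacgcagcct
UTP14A: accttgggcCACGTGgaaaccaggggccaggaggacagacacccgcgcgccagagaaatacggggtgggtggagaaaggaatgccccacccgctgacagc
IMP4: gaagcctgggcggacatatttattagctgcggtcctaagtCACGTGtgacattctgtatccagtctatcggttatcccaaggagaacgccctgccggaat
NOP10: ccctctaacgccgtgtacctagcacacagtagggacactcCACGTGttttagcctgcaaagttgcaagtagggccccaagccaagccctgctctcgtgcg
Counted from the gene start, the E-box shown begins at -89 in EXOSC5, -241 in UTP14A, -203 in IMP4 and -170 in NOP10.

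MYC itself, the transcription factor known to drive ribosome biogenesis genes, varied within both groups. It stood at 68.5, 91.5, 36.4 and 78.4 scaled RPKM in DMOG replicates 1 to 4, against 101, 74.6, 36.1 and 136 with vehicle. Its groups overlapped widely, with a log2 fold change of -0.26 over 8 libraries (adjusted p = 0.669) and -0.44 over 6 (adjusted p = 0.521).

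Other genes of the pathway mostly stood lower too, with a fold change below 0 over 8 libraries in 114 of 125 tested, against 48.6% of all genes. They were listed from knowledge of the pathway, but with earlier results of these data known, so they are no independent check. Of 43 other small-subunit factors, all tested, 21 fell over 6 libraries and 0 rose, against 15.8% of all genes lower and 14.4% higher. Their median log2 fold change was -0.45 over 8 libraries and -0.56 over 6. NOL6, HEATR1 and DCAF13 had the largest differences over 8 libraries (-1.08, -0.87 and -0.86). NOL6 stood at 3.06, 8.13, 6.94 and 0.961 scaled RPKM in DMOG replicates 1 to 4, against 9.43, 9.23, 10.1 and 8.56 with vehicle. Of 53 large-subunit factors tested (55 listed), 23 fell and 1 rose, against the same shares, with medians of -0.50 and -0.69. EBNA1BP2, an assembly factor, stood at 14.4, 37.6, 23.2 and 8.89 with DMOG, against 44.9, 57.3, 46.1 and 43.6 with vehicle, and fell by 1.57 over 6 libraries (adjusted p = 0.0116). MYBBP1A fell by 1.58 (adjusted p = 0.019) and WDR74 fell by 1.41 (adjusted p = 0.029). The factor that rose was NOP53, listed by its older symbol GLTSCR2, at 171, 130, 166 and 205 with DMOG against 122, 127, 119 and 120 with vehicle (0.57, adjusted p = 0.0146), chosen here after its values were seen.

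Of 10 snoRNP assembly genes, 4 fell over 6 libraries and 0 rose, against 15.8% of all genes lower and 14.4% higher. RUVBL1, an ATPase of the assembly chaperone, stood at 4.53, 17.1, 10.01 and 2.34 scaled RPKM in DMOG replicates 1 to 4, against 19.5, 19.8, 18.7 and 19.7 with vehicle, and fell by 1.79 (adjusted p = 0.0171). NAF1 fell by 0.78 (adjusted p = 0.0169) and RUVBL2 fell by 0.70 (adjusted p = 0.0141). Of 19 nucleases and cofactors that work with the exosome, 6 fell and 1 rose, against the same shares. Their median log2 fold change was -0.12 over 8 libraries and -0.18 over 6. It was below 0 in 12 of the 19 in both comparisons, against 48.6% and 49.0% of all genes. WDR61, a subunit of the cytoplasmic Ski complex, and XRN2, a nuclear exonuclease, had log2 fold changes of -0.81 and -0.62 (adjusted p = 0.012 and 0.0123). MPHOSPH6, a cofactor for ribosomal RNA trimming, had -0.80 (adjusted p = 0.139), and RBM7, of the nuclear exosome targeting complex, was the one that rose, by 0.38 (adjusted p = 0.0361, named after its values were seen).

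Markers of dividing and basal cells were read beside these results, since ribosome biogenesis is high in growing cells. Of 15 cell cycle genes, 7 passed the filter on low values. The summed level of all 15 was 42.5, 66.9, 39.2 and 31.9 scaled RPKM in DMOG replicates 1 to 4. It was 71.6, 96.7, 42.9 and 47.6 in vehicle replicates 1 to 4, so each DMOG library was below the vehicle library of its number. Over 6 libraries 1 of the 7 fell, PCNA, and 1 rose, MCM5, against 15.8% of all genes lower and 14.4% higher. MKI67 stood at 0.347, 1.07, 0.04 and 0.00306 with DMOG, against 1.12, 1.71, 0.108 and 0.0664 with vehicle. In MKI67 each DMOG library was below the vehicle library of its number, though a pairing is not established. Vehicle replicates 3 and 4 were below DMOG replicates 1 and 2. The members stood at like levels in all 4 vehicle libraries, with summed levels of 840, 1273, 1016 and 698 in DMOG replicates 1 to 4 and 1334, 1392, 1328 and 1285 in vehicle replicates 1 to 4. The MKI67 values are under the filter and carry no test. Of 9 basal keratinocyte markers 5 rose over 6 libraries and 0 fell, against the same shares of all genes. Their summed level, most of it KRT5 and KRT14, was 13046 to 17308 with DMOG and 8124 to 16831 with vehicle. TP63 was the 1 marker of the 9 with a fold change below 0 (-0.26 over 6 libraries, adjusted p = 0.0952). The part of cell composition in the members' levels was not tested.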

How the data were processed

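Per the submitters' processing notes, the tools include HTSeq 0.6.1, TopHat2 2.0.13 and Bowtie2 2.2.3.0, with no role given, and hg19 and hg38 are both named. Chromosome names in the deposited table are those of hg19. The authors deposited RPKM values for 25369 genes, in a table named as raw counts. Multiplying by listed length gave whole reads for 99.9993% of values above 0 (within 0.01 reads), and these were used for depth and for limma-voom as an alternative. The authors' deposited comparison table gives normalized group means, their ratio, its log2 value and p-values. Its means were recovered within 0.0001 from replicates 1, 3 and 4 of each group for 99.99% of genes, which also gave its direction.

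RPKM were divided by median-ratio factors and fitted as log2(RPKM + 1) with limma-trend (limma 3.58.1, R 4.3.3, robust, two-sided, group as the term, Benjamini-Hochberg over 11122 genes, threshold 0.05). Kept genes reached RPKM 1 in at least 4 libraries. The fit was first tried on simulated data with the same spread in both groups. That trial does not cover the wider spread among these DMOG libraries. Fold changes on this scale understate those of low genes. Members and lists were chosen with earlier results of these data known. Members with values in every library are the 2 (4 in groups of 10 or more) with the largest fold change over 8 libraries in each role and the one with the highest level. NCL and the other members are given by their fold change. For same-numbered libraries, deviations from group means correlated at 0.46, 0.39 and 0.34 over 6 libraries, and at -0.02 to 0.53 over 8, so the block is used over 6 only. No pair of libraries agreed within sampling noise.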

Additional observations from a re-analysis of the deposited data

Results flagged for a closer look

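EXOSC5 in DMOG replicate 2 stood at 5.28 scaled RPKM, far from the other 3 DMOG libraries at 1.301 to 1.62, and its gap to the nearest of them was 0.921 of the range of the group. It lay within the range of the 4 vehicle libraries, 3.94 to 6.03. Of 64 groups of 4 libraries looked at in this way, 1 stood out, where chance gives about 1 in 20. The 6-library comparison does not use this library, and the cause was not tested.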

How the results depend on the processing

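Over 8 libraries, calls over all genes and over the members were 0 under every alternative tried except without DMOG replicate 2, where 1777 genes were higher, 1928 lower and 39 members lower. Leaving out 1 of the 8 in turn gave 0 to 1777 genes higher, 0 to 1928 lower, 0 to 39 members lower. Over 6 libraries, RPKM as deposited gave 682 genes higher and 3836 lower (1600 and 1755 with factors) and 46 members lower, the replicate block 43 members lower, and no filter 14 members lower. Leaving out 1 of the 6 gave 402 to 2358 genes higher, 502 to 2429 lower and 8 to 47 members lower. The cause of these shifts was not tested, beyond the fewer samples or more genes tested. The replicate block over 8 libraries called 0 members, and it ended no call of a member over 6. With upper-quartile factors 28 members were lower over 6 libraries. The median log2 fold change of members stayed negative throughout, from -0.87 to -0.43 over 8 libraries and from -1.15 to -0.58 over 6. RPKM as deposited moved the median of all genes to -0.18 over 8 libraries and -0.26 over 6.

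Direction turned only for the 3 nearly level genes among the 30 described by library, NOP10, IMP3 and EXOSC10. Over 8 libraries NOP10 was at -0.17 as deposited and from -0.0105 to 0.156 with 1 library left out, IMP3 at -0.21 as deposited, -0.0214 with upper-quartile factors and from -0.12 to 0.119 with 1 left out, and EXOSC10 from -0.0858 to 0.0276 with 1 left out. Over 6 libraries NOP10 was at -0.23 as deposited and from -0.0121 to 0.237 with 1 left out, IMP3 at -0.29 as deposited, -0.0332 with upper-quartile factors and from -0.18 to 0.172 with 1 left out, and EXOSC10 at -0.27 as deposited, -0.0117 with upper-quartile factors and -0.0419 with vehicle replicate 2 added. The fewest reads of any member in a library were 28, so depth limits few of them.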

Other observations

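Small nucleolar RNAs lie in introns of some members. The deposited table lists 22 such rows inside 8 members, among them 5 in NOP56, and 9 of the 22 had no read in any library. SNORD110 in NOP56 had the most, 72 reads over 8 libraries. The level of these RNAs can therefore not be read from these libraries, and it is left without a comparison.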
